A study of Homo sapiens with 8 samples.

Results

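The clustered protocadherin genes were taken as the protein-coding genes of chromosome 5 in GENCODE release 44 (hg38) whose symbols start with PCDHA, PCDHB, or PCDHG. There are 53 of them among 20033 protein-coding genes, 15 in the alpha, 16 in the beta, and 22 in the gamma cluster. Replication origins were assigned to them where an origin overlapped a gene by at least 1 bp. Of the 30197 origins on the WT list, 3 overlapped a member gene, as did 2 of 33535 in ORC1Δ cells, 3 of 37813 in ORC2Δ cells, and 3 of 41332 in ORC5Δ cells. Each of the 3 tables of read counts held the same 3 origins, among 42162, 44174, and 46467 in all. Every one of these origins lay at the end of the gamma cluster, and the files used here list none in the alpha or beta cluster in any line.

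The origins come from SNS-seq, which sequences the short nascent strands made where replication starts, in HCT116 p53-/- colon cancer cells. WT here means this p53-/- parent, so all 4 lines lack p53. The ORC1Δ, ORC2Δ, and ORC5Δ lines were made from it with CRISPR-Cas9 and carry no treatment, and each line had 2 biological replicates, 8 samples in all. A list gives the peaks found in both replicates of a line, and a table gives, for WT and a knockout line, the merged reads in every origin that either of them had, so no spread between replicates exists and every interval below covers counting error only. The total reads ranged from 6416892 to 6878409 for WT and from 6691088 to 8523971 for the knockout lines, and the median origin of a table held 110 to 114 WT reads. The edits in ORC1, ORC2, and ORC5 cannot be checked with these reads, which count nascent strands rather than transcripts or alleles.

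Clustered protocadherins are cadherin-like proteins of the cell surface that give neurons a molecular identity. In the alpha and gamma clusters, each variable exon has a promoter of its own and encodes the outer part, the membrane span, and part of the tail of a protein, and its RNA is spliced to constant exons that all genes of the cluster share and that encode the rest of the tail. The beta genes lack constant exons. A neuron uses few of the promoters, and that choice is tied to DNA methylation, to the insulator protein CTCF, and to the ring complex cohesin. The origin recognition complex (ORC), of which ORC1, ORC2, and ORC5 are subunits, helps to load the MCM2-7 helicase onto DNA before replication.

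The 3 clusters lie head to tail on the plus strand of chromosome 5. The alpha genes span chr5:140786136-141012347 (226 kb), the beta genes chr5:141051374-141249365 (198 kb), and the gamma genes chr5:141330514-141512977 (182 kb), which makes a locus of 727 kb. The origins are named here by their order, the first and second in the intron between constant exons 1 and 2 of the gamma cluster, and the third in constant exon 3. Many human origins hold runs of G that can fold into a G-quadruplex, so the 25-base window with the strongest such motif (highest absolute G4Hunter score, which rewards runs of G on one strand) is shown for each. The windows lie at chr5:141496076-141496100 (minus strand), chr5:141504648-141504672 (plus strand), and chr5:141512560-141512584 (minus strand) of hg38, each is written 5′ to 3′ on the strand named, and capitals mark runs of at least 2 G.
The first gamma origin: gtgttGGtGGGtGGtGGGtGGGGGG
The second gamma origin: agtgtttgaGGGcGGGGGGtGGGGG
The third gamma origin: GGGGcagaaGGGGGtGGGagaagaa

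Promoters of the same locus are shown for their sequence. RefSeq (GRCh38.p14) gave a promoter, from 250 bases before to 50 bases after the start, for 47 of the 53 genes (13 alpha, 14 beta, and 20 gamma). Of these 47, 0 overlapped an origin of any list. The share over other promoters was not computed, and stretches this short would hold few origins, so this 0 says little about the promoters. Shares for wider windows around gene starts are given below. The promoters of a cluster share short words just before the gene start. Below are 30 bases from 2 genes of each cluster, all on the plus strand, with the 10-base word that more promoters of that cluster hold than any other in capitals. They lie at chr5:140786085-140786114, chr5:140794780-140794809, chr5:141094545-141094574, chr5:141245315-141245344, chr5:141330405-141330434, and chr5:141350027-141350056.
PCDHA1: cattggccacATGATGTCGCtgtacaccac
PCDHA2: ttttagccacATGATGTCGCtgtccaccat
PCDHB2: agagacgcggGGTGGCGCTGcagccttaga
PCDHB15: gacaacgcatGGTGGCGCTGcaggctaagg
PCDHGA1: aggactgtggGCGCCGCTGTtcactaatct
PCDHGB1: caacctctggGCGCCGCTGTcgaccaaaag

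The alpha word was present in 8 of 13 alpha promoters, against 0.00856% of the 35064 other promoters searched on both strands. The beta word was present in 12 of 14 beta promoters (0.242% of the others), and the gamma word in 9 of 20 gamma promoters (0.103%). The core CGCT, which all 6 lines above contain, was found on either strand in 46 of the 47 member promoters (97.9%) and in 70.0% of the others. The words were picked from these promoters, so the shares describe them and test nothing.

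Across the locus, the origins left a gap that covered all gene starts of the 3 clusters. With the 4 lists joined, no origin was listed between chr5:140555857 and chr5:141495434, a stretch of 940 kb. It contained the starts of all 53 member genes and of 15 other protein-coding genes, among them HARS1 and HARS2, which encode the cytosolic and the mitochondrial histidyl-tRNA synthetase, and TAF7, which encodes a subunit of the TFIID transcription factor. It also contained 104 CpG islands.

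**Figure D1:**
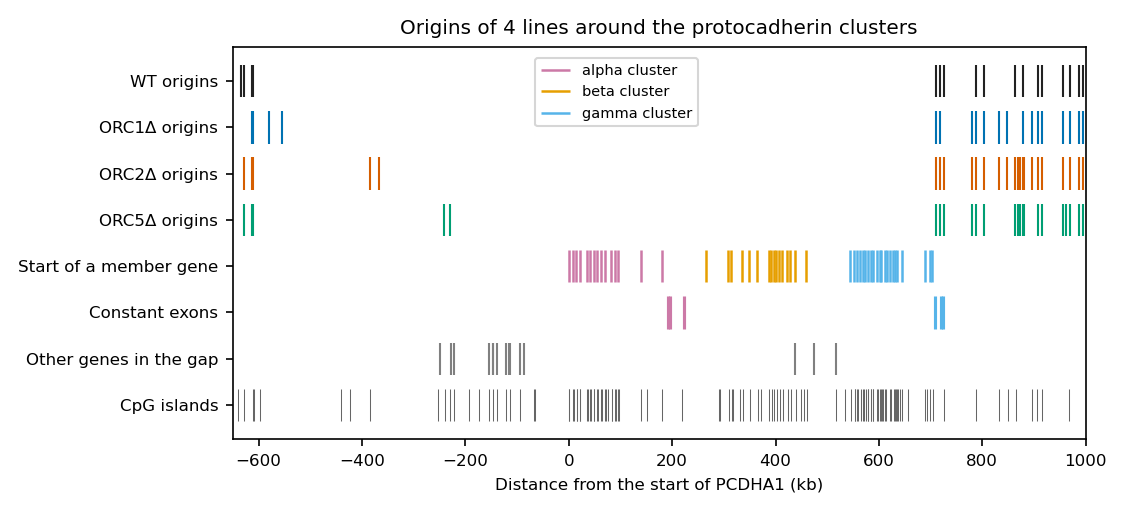
Positions along chromosome 5 in kb from the start of PCDHA1, with 1 mark for each origin of WT, ORC1Δ, ORC2Δ, and ORC5Δ cells in the upper rows and for member gene starts (coloured by cluster), constant exons, other gene starts in the gap, and CpG islands in the lower rows. No origin mark stands above the alpha or beta starts or above the gamma starts, and the marks resume at the gamma constant exons in all 4 lines.

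Some other gaps were as long, but none held as many gene starts. Of 56695 gaps between neighbouring origins that hold no assembly gap, 325 (0.573%) were at least this long, this one included, and the median gap was 11.7 kb. These 325 long gaps held a median of 2 protein-coding gene starts (interquartile range 1 to 4) and of 13 CpG islands, and 77 of them held no gene start. The protocadherin gap held 68 starts, the highest number of all 56695 gaps, and no other gap held as many as 104 islands. The next were a gap of 4725 kb on chromosome X with 44 starts, a gap of 562 kb on chromosome 6 with 40 starts (mostly histone genes), and a gap of 955 kb on chromosome 21 with 34 starts (mostly keratin-associated protein genes). The density of the protocadherin gap, 72.4 starts per Mb, compares with 6.82 per Mb over the genome and 2.14 per Mb over the 325 long gaps. Of its 68 starts, 53 are those of the member genes, which were chosen as clusters, so its rank and density partly reflect that choice. It held 15 other starts, and 25 gaps, this one with its members included, held more than 15.

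**Figure D2:**
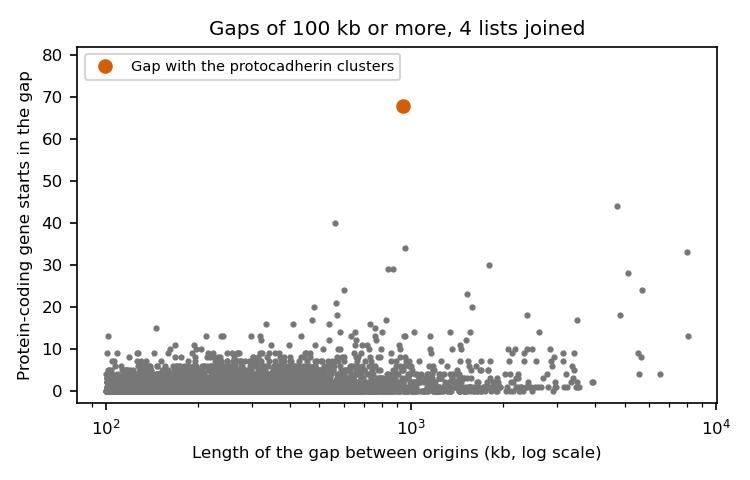
Gaps of at least 100 kb between neighbouring origins of the 4 joined lists, with the length in kb on a log axis and the number of protein-coding gene starts on the vertical axis. The gap with the protocadherin clusters (large orange point) stands at 940 kb and 68 starts, above the next highest at 44.

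Each list alone gave a gap that ended at the first gamma origin and began at a different place. The gap was 1320 kb in WT, 1263 kb in ORC1Δ cells, 1075 kb in ORC2Δ cells, and 940 kb in ORC5Δ cells, and it held 74, 74, 69, and 68 gene starts. In ORC1Δ and in ORC5Δ cells no other gap held as many gene starts, while in WT and in ORC2Δ cells 2 gaps, this one included, held at least as many. For CpG islands, 2 gaps in WT and 3 each in ORC1Δ and ORC2Δ cells, this one included, held at least as many. In ORC5Δ cells no other gap held as many islands. The nearest origin before PCDHA1 was 610 kb away in WT, 554 kb in ORC1Δ cells, 366 kb in ORC2Δ cells, and 230 kb in ORC5Δ cells, an order that runs against the number of origins on each list. On the other side, the next origin after the last gamma gene was 60.7 kb away in WT and 52.8 to 52.9 kb away in the knockout lines.

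The distance from a member gene's start to its nearest origin was shortest for the gamma genes in every line and longest for the alpha genes in all lines but ORC5Δ. In WT cells the median distance was 628 kb for the alpha genes (range 529 to 658 kb), 316 kb for the beta genes (250 to 444 kb), and 107 kb for the gamma genes (6.70 to 165 kb). The ORC5Δ list, the longest, gave 285 kb, 316 kb, and 107 kb. The alpha distances were thus the ones that varied between lines, with medians of 595 kb in ORC1Δ and 421 kb in ORC2Δ cells. PCDHGC5, the last gene to start before the constant exons, was the nearest of all, at 6.70 kb in WT, 6.43 kb in ORC1Δ cells, 6.35 kb in ORC2Δ cells, and 6.55 kb in ORC5Δ cells. Over all 53 members the median was 296 kb in WT, ORC1Δ, and ORC2Δ cells and 251 kb in ORC5Δ cells, beside medians of 38.8, 34.5, 28.0, and 23.6 kb over the other 19980 protein-coding genes. Of those other genes, 14.1%, 11.0%, 10.2%, and 10.0% started at least as far from an origin as the median member. The other 829 protein-coding genes of chromosome 5 alone had longer medians, of 91.7, 71.6, 63.5, and 49.5 kb in the same order of lines. The member distances share the same few flanking origins and are not independent of one another.

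Variable exons, which carry the gene starts, held no origin in any cluster or line. After joining those that overlap there are 14 in the alpha, 16 in the beta, and 21 in the gamma cluster, and a count of 0 allows shares of up to 21.4%, 18.8%, and 14.3%. They cover 68.5, 65.4, and 75.6 kb, and protein-coding gene bodies of chromosome 5 held 7.72 (WT) to 11.96 (ORC5Δ) origins per Mb. At such densities stretches this short would hold few origins, so the 0 counts say little about variable exons. The constant exons differed between the clusters in what they held. Alpha constant exons 1, 2, and 3 (chr5:140978949-140979007, chr5:140982475-140982563, and chr5:141009627-141012347) held 0 origins. Gamma constant exons 1 (chr5:141494807-141494865) and 2 (chr5:141505393-141505481) also held 0, and gamma constant exon 3 (chr5:141510947-141512977) held 1 in WT, ORC2Δ, and ORC5Δ cells and 0 in ORC1Δ cells. Since all 22 gamma genes run to the shared constant exons, each gamma gene body overlapped the same 3 origins and none is tied to a particular gamma gene.

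No member start had an origin within 2 kb in any list, 0 of 53, which allows a share of up to 5.66%. Among the other 829 protein-coding genes of chromosome 5, 13.6% had one in WT, 13.1% in ORC1Δ cells, 16.4% in ORC2Δ cells, and 17.9% in ORC5Δ cells. Among all 19980 other genes the shares were 21.0%, 19.1%, 23.7%, and 25.01%. Restricting the count to starts with a CpG island within 2 kb kept 50 members, again with 0 (up to 6%), while the shares of other genes rose to 16.0%, 15.7%, 19.6%, and 20.9% on chromosome 5 and to 25.1%, 22.5%, 28.1%, and 29.7% in the genome. Neighbouring member starts lie close together, so the 53 are not 53 separate chances to hold an origin.

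CpG islands, stretches rich in the CG dinucleotide that often hold origins, were many in the locus, and few were overlapped by an origin. The member gene bodies held 84, of which 31 were in the alpha, 15 in the beta, and 38 in the gamma cluster. An origin overlapped 1 of 84 (1.19%) in WT, ORC2Δ, and ORC5Δ cells and 0 in ORC1Δ cells (up to 3.57%), and the island was the one at the third gamma origin. Many islands of the locus lie close together and most share the same gap, so the 84 are not 84 separate chances to hold an origin. Islands elsewhere on chromosome 5 were overlapped at 6.04%, 4.69%, 6.74%, and 6.82% in WT, ORC1Δ, ORC2Δ, and ORC5Δ cells, and islands in the rest of the genome at 9.002%, 7.39%, 9.94%, and 10.3%. Of 186 G-quadruplex motifs in member genes, origins overlapped 6 in WT, 3 in ORC1Δ cells, 8 in ORC2Δ cells, and 7 in ORC5Δ cells (3.23%, 1.61%, 4.30%, and 3.76%), beside 3.83%, 4.19%, 4.95%, and 5.09% of those elsewhere on chromosome 5.

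The base composition of the exons differed between classes. The variable exons had a GC content of 47.3% in the alpha, 47.0% in the beta, and 49.8% in the gamma cluster, with an observed over expected CpG of 0.77, 0.62, and 0.63, and 31.1%, 20.8%, and 25.8% of their bases in CpG islands. The constant exons had 40.3% GC in the alpha and 56.6% in the gamma cluster. The gamma constant exons held 9 G-quadruplex motifs (4.13 per kb), and the alpha constant exons held 0. Paralogs are alike in sequence, which can cost reads that do not map to a single place. Of all 50-base windows, 8.72% in alpha, 17.2% in beta, and 6.77% in gamma variable exons had an exact copy elsewhere in hg38, against 7.59% over the member gene bodies and 0 in the constant exons. The part of repeated sequence in the gap was not tested, since the tables hold reads in origins only and give no level elsewhere.

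Per Mb, how far the clusters stood below other regions depended on the region they were set against. The 53 genes cover 0.474 Mb and held 6.33 origins per Mb in WT, ORC2Δ, and ORC5Δ cells (95% exact Poisson interval 1.30 to 18.5) and 4.22 in ORC1Δ cells (0.511 to 15.2). Protein-coding gene bodies of chromosome 5 held 7.72, 10.1, 10.8, and 11.96 origins per Mb in WT, ORC1Δ, ORC2Δ, and ORC5Δ cells, and those of the genome 13.9, 14.9, 16.9, and 18.5. The ratio of the members to chromosome 5 was 0.820 (0.169 to 2.396), 0.419 (0.0507 to 1.51), 0.583 (0.120 to 1.71), and 0.529 (0.109 to 1.55), so each interval includes 1. Against the genome, the upper limit of 18.49 lies just under the ORC5Δ density of 18.54, and the intervals of the other lines include theirs. Counted from the first to the last member gene, with the spaces between genes included, the locus held 4.13 origins per Mb (0.851 to 12.1) in WT, ORC2Δ, and ORC5Δ cells and 2.75 (0.333 to 9.94) in ORC1Δ cells. The 5 Mb on each side held 11.3 in WT cells and 13.5, 14.2, and 14 in ORC1Δ, ORC2Δ, and ORC5Δ cells, so the upper limit of the locus lies below the value of its flanks in the 3 knockout lines and not in WT. The intervals of locus and flanks still overlap in ORC2Δ cells (flanks from 11.96) and in ORC5Δ cells (from 11.78), and do not in ORC1Δ cells (from 11.3). The 2 sides differed, with 13.8, 15.2, 17.4, and 16.6 per Mb before the locus in WT, ORC1Δ, ORC2Δ, and ORC5Δ cells. After the locus, the values were 8.8, 11.8, 11, and 11.4. The upper limit of the locus lies below this later side in ORC1Δ cells only, and there the intervals overlap (later side from 8.98). The gamma gene bodies alone held 16.4 origins per Mb (3.39 to 48.0) in WT, ORC2Δ, and ORC5Δ cells and 11.0 (1.33 to 39.6) in ORC1Δ cells. For the count of 0 in the alpha gene bodies (0.226 Mb) the exact Poisson interval reached 16.3 origins per Mb, and in the beta gene bodies (0.0654 Mb) 56.4. The limit of 3 counts, used for the other counts of 0, gave 13.3 and 45.9.

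The first gamma origin lay in the intron after constant exon 1, 641 bp past its end by the ORC1Δ borders, and was wider than the second in ORC1Δ and ORC2Δ cells. Its borders differed between lines. It measured 346 bp in WT, 695 bp in ORC1Δ cells, 773 bp in ORC2Δ cells, and 539 bp in ORC5Δ cells, where the median origin measured 525, 516, 528, and 524 bp. Reads of both lines were counted over 695 bp with ORC1Δ, 773 bp with ORC2Δ, and 539 bp with ORC5Δ. Each of these was the interval of the knockout line, and the narrower WT interval lay inside it. Whether these borders moved the folds below was not tested. The first gamma origin had 115 WT and 154 ORC1Δ reads, 120 WT and 186 ORC2Δ reads, and 98 WT and 149 ORC5Δ reads. Scaled to the line's total reads in the table (RPM, the study's unit), these were 17.9 and 23.02, 18.1 and 23.8, and 14.2 and 17.5. All 3 knockout lines were thus above WT, with a log2 fold over WT of 0.36 (95% exact Clopper-Pearson interval 0.0030 to 0.72) in ORC1Δ cells, 0.40 (0.060 to 0.74) in ORC2Δ cells, and 0.30 (−0.08 to 0.68) in ORC5Δ cells. The ORC2Δ interval excludes 0, the ORC1Δ interval does so by 0.0030, and the ORC5Δ interval includes it. Corrected for the trend with GC content, the ORC1Δ value was 0.23, which an interval of the same width would not set apart from 0. The same WT libraries enter all 3 comparisons, so the shared direction does not rest on separate controls.

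The second gamma origin lay 188 bp before constant exon 2 by its WT borders, in the same intron, and was the strongest in WT cells. Its intervals measured 618 bp in WT, 341 bp in ORC1Δ cells, 585 bp in ORC2Δ cells, and 653 bp in ORC5Δ cells. For WT and ORC1Δ, reads were counted over the WT interval of 618 bp, wider than that of ORC1Δ cells. Whether this moved the ORC1Δ fold was not tested. WT had 162 reads and ORC1Δ 121, WT 162 and ORC2Δ 174, and WT 166 and ORC5Δ 171. The RPM were 25.2 and 18.1, 24.4 and 22.3, and 24.1 and 20.1, so that WT was the higher in each pair. The log2 fold was −0.48 (−0.83 to −0.13) in ORC1Δ cells, −0.13 (−0.45 to 0.19) in ORC2Δ cells, and −0.27 (−0.58 to 0.050) in ORC5Δ cells, and of these intervals that of ORC1Δ alone excludes 0.

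The third gamma origin overlapped the last 458 bases of constant exon 3 by its WT borders. It ran past the end of the gamma genes toward DIAPH1, a formin gene on the opposite strand whose span begins 2038 bp beyond that end. The last coding base of the gamma genes is at chr5:141511170, so the exon sequence under this origin is 3′UTR. The origin measured 482 bp in WT, 483 bp in ORC2Δ cells, and 555 bp in ORC5Δ cells and was not on the ORC1Δ list. For WT and ORC1Δ, reads were counted over the WT interval of 482 bp, and whether this moved the fold was not tested. WT had 108 reads and ORC1Δ 79, WT 108 and ORC2Δ 125, and WT 125 and ORC5Δ 140. These were 16.8 and 11.8, 16.3 and 16.0, and 18.2 and 16.4 RPM, so reads were counted there in ORC1Δ cells as well. The log2 fold was −0.51 (−0.95 to −0.08) in ORC1Δ cells, −0.02 (−0.41 to 0.36) in ORC2Δ cells, and −0.15 (−0.50 to 0.21) in ORC5Δ cells.

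**Figure D3:**
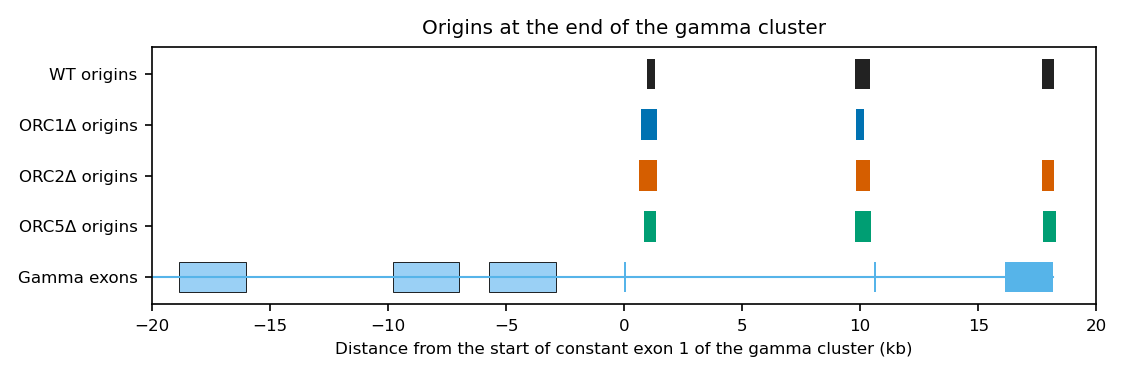
Origins of WT, ORC1Δ, ORC2Δ, and ORC5Δ cells (bars) at the end of the gamma cluster, in kb from the start of constant exon 1, with the variable exons of PCDHGC3, PCDHGC4, and PCDHGC5 (pale boxes) and constant exons 1 to 3 (solid) in the lowest row. The first and second origins stand near either end of the intron between constant exons 1 and 2 in all 4 lines, and the third, in constant exon 3, is missing from the ORC1Δ row.

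By the rule of a 1.5-fold change in RPM (0.58 on the log2 scale), 0 of the 3 gamma origins were up or down in any knockout line. Over all origins, 7.04% were up and 3.95% down in ORC1Δ cells, 4.66% and 3.58% in ORC2Δ cells, and 2.08% and 0.680% in ORC5Δ cells. Beside these shares, 0 of 3 says nothing particular about the gamma origins. By presence on a list, 1 of 3 was on the WT list and absent from the ORC1Δ list, as were 20.7% of all origins in that table. None of the 3 was absent in ORC2Δ or ORC5Δ cells (14.6% and 11.3% of all origins), and none was on a knockout list only (28.6%, 32.0%, and 35.3%).

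**Figure D4:**
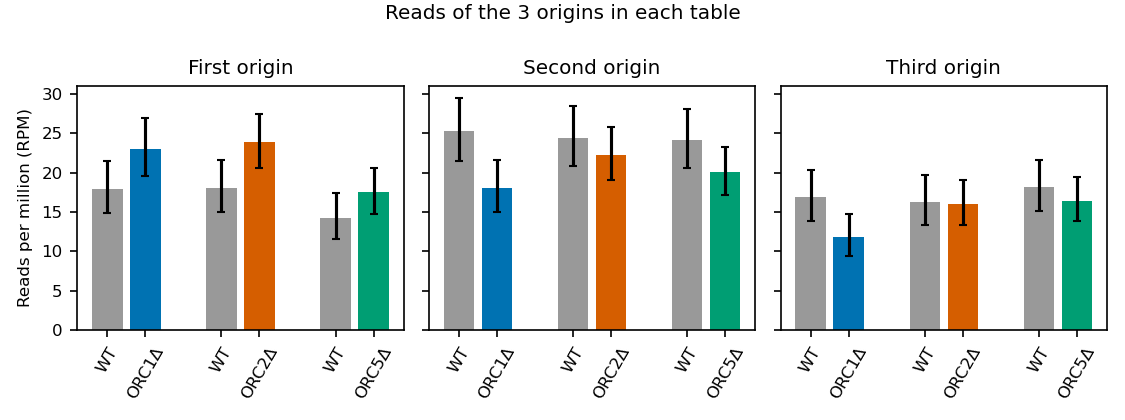
RPM of the first, the second, and the third gamma origin in WT (grey) and the knockout line (colour) of each table, with bars from 0 and 95% exact Poisson intervals as error bars (counting error only). The first origin is higher in each knockout line than in WT, at 23.02 RPM in ORC1Δ and 23.8 RPM in ORC2Δ cells, and the second is lower, at 18.1 RPM in ORC1Δ cells.

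Against all origins of each table, the 3 gamma origins were placed as follows. The log2 fold of the first stood at percentile 83.6 in ORC1Δ cells, 91.1 in ORC2Δ cells, and 89.7 in ORC5Δ cells. The second stood at 7.19, 35.9, and 9.88, and the third at 6.10, 52.5, and 23.6. In each knockout line the first origin stood highest of the 3. Summed over the 3 origins, WT had 385 reads and ORC1Δ 354, WT 390 and ORC2Δ 485, and WT 389 and ORC5Δ 460. The pooled log2 fold was −0.18 (−0.39 to 0.031), 0.08 (−0.11 to 0.28), and −0.07 (−0.27 to 0.13), and each interval includes 0. The members' medians were −0.48, −0.02, and −0.15, beside −0.01, −0.04, and −0.0032 over all origins. Origins within 5 Mb on each side numbered 172, 170, and 175 in the 3 tables and had medians of 0.0059, −0.01, and 0.0089.

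The sequences under the 3 gamma origins were not alike. The first had a GC content of 48.8% in the ORC1Δ table and a GC skew (excess of G over C, as a share of both) of −0.46, which in absolute size stood at percentile 79.2 of all origins, and it lay outside any CpG island. The second had 50.6% GC, a skew of 0.07, and 1 G-quadruplex motif against 2 in the first. The third had 55.4% GC and a skew of −0.14, overlapped a CpG island, and had 4 motifs. The medians over all origins of that table were 52.5% GC and an absolute skew of 0.36. Correcting the log2 fold for the trend with GC content gave 0.23, −0.57, and −0.47 in ORC1Δ cells, 0.42, −0.09, and 0.03 in ORC2Δ cells, and 0.28, −0.29, and −0.15 in ORC5Δ cells. In WT reads per kb, the first origin stood at percentiles 14.1 to 31.8 of the 3 tables, the second at 69.8 to 72.8, and the third at 53.2 to 55.6. For the first, the width that divided the WT reads was that of the knockout interval. Its percentile was 31.8 at 539 bp, 18.2 at 695 bp, and 14.1 at 773 bp, beside a WT interval of 346 bp. Its low rank therefore does not measure the WT interval alone.

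Genes beside the clusters held origins again beyond the end of the gap. Of 12 genes listed as lying between or beside the clusters, 7 lie inside the gap and so, by its definition, had no origin in any line. These were WDR55, DND1, HARS1, HARS2, and ZMAT2 before the alpha cluster and SLC25A2 and TAF7 between the beta and gamma clusters. Beyond the gamma cluster, DIAPH1 held 2 origins in WT, 4 in ORC1Δ cells, 4 in ORC2Δ cells, and 3 in ORC5Δ cells. ARAP3, which encodes a GTPase-activating protein, held 1, 2, 5, and 4, the histone deacetylase gene HDAC3 held 0, 1, 1, and 0, FCHSD1 held 1, 0, 1, and 1, and RELL2 held 0 in each. By 500-kb bins from the start of PCDHA1, the first bin held 0 origins in every line, the bin before it 0, 0, 2, and 2, and the bin after it 13, 15, 20, and 18 in WT, ORC1Δ, ORC2Δ, and ORC5Δ cells. An empty bin was not particular to the locus, since the bins from 3.5 to 4 Mb and from 4.5 to 5 Mb also held 0 in every line.

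Protocadherin genes outside the clusters were counted the same way. Of 12 such genes, 3 held an origin in WT cells and 2 in each knockout line, beside 36.8%, 38.04%, 41.4%, and 43.9% of the 19980 protein-coding genes other than the members in WT, ORC1Δ, ORC2Δ, and ORC5Δ cells. In at least 1 line 5 of the 12 held one, and the counts over the 12 were 6 in WT, 2 in ORC1Δ cells, 4 in ORC2Δ cells, and 6 in ORC5Δ cells. PCDH1, on chromosome 5 as well, held 3, 0, 3, and 4, and PCDH12 held 2, 1, 1, and 0. PCDH7, PCDH8, PCDH9, PCDH15, PCDH17, PCDH18, and PCDH19 held 0 in every line. Of their origins in the tables, 1 of 7 was down in ORC1Δ cells, 1 of 7 was down in ORC2Δ cells, and 1 of 9 was up in ORC5Δ cells, beside the shares of all origins given above.

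Of 17 genes for known regulators of the clusters, 5 held an origin in WT cells and 4 in each knockout line, which can be read against the same shares of 36.8% to 43.9%, and 7 held one in at least 1 line. DNMT3A and DNMT3B, which encode the de novo DNA methyltransferases, held most of them, with 11, 9, 11, and 13 in DNMT3A and 3 in each line in DNMT3B. CTCF held 1 origin in WT and 2 in ORC1Δ cells and 0 in the other lines. The cohesin genes SMC1A, SMC3, STAG1, and STAG2 held 0 in every line, and RAD21 held 1 in ORC5Δ cells. Of 22, 23, and 22 origins of these genes in the 3 tables, 0 were up in any line, and 2 were down in ORC1Δ cells, 1 in ORC2Δ cells, and 0 in ORC5Δ cells, where 3.95%, 3.58%, and 0.680% of all origins were down and 7.04%, 4.66%, and 2.08% up. The targeted genes held few, with 1 origin in ORC1 in WT cells, 1 in ORC5 in ORC5Δ cells, and 0 in ORC2.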

How the data were processed

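SNS-seq of 8 samples was used, with 2 replicates for each of 4 HCT116 p53-/- lines. Per the submitters' processing notes, reads were trimmed with Trim Galore 0.6.4, aligned to GRCh38 with Bowtie, and handled with bedtools, and the authors called peaks with MACS2 and kept those found in both replicates. The deposited tables hold read counts, without normalization and with replicates merged. The counting tool, the read length, and the treatment of duplicates are not given in the sources used here. Duplicate reads are not independent molecules, so intervals cover counting error only.

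Counts were divided by all reads that a table gives for a line (6416892 to 8523971 reads). Folds were called at 1.5 without a filter or pseudocount, and a count of 0 was read with a limit of 3 counts. No test between lines was run. Intervals are 95% exact Clopper-Pearson (reads) or exact Poisson (origins). Constant exons are those that overlap exons of at least 3 other genes of the cluster. CpG islands had a length above 200 bp, 50% or more GC, and an observed-to-expected CpG ratio over 0.6, and G-quadruplex motifs came from G4Hunter windows of 25 bases. Gaps with runs of at least 1000 undetermined bases were left out. Genes and origins were named by rule: origins in constant exons, the 5 strongest WT origins of each cluster, called origins, genes whose variable exon held an origin in all 4 lists, and the gene lists given. The members and lists were chosen with earlier results of these data known. 0 columns of per-sample values were left unused. The alternatives covered the overlap, the region, the scaling, a filter of 100 reads, GC content, the threshold, the kind of call, and the reference region. The scripts were tested on simulated data. The work was done in R 4.3.3 (edgeR 4.0.16, for the scaling alternative) and Python 3.11.15, where pandas 2.3.3 and numpy 2.4.6 held the tables, numba 0.67.0 scanned the genome, pysam 0.24.0 and samtools 1.23.1 read it, scipy 1.17.1 gave the intervals, and matplotlib 3.10.9 drew the plots.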

Additional observations from a re-analysis of the deposited data

How the results depend on the processing

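Of 94 values recomputed under an alternative for the overlap, the region, the scaling, the filter, GC content, the threshold, or the reference, 93 stayed within 1.5 times the reported count or within the 95% counting interval of the reported value. Some of these values could not move, since a stricter fold threshold cannot raise a count of 0 and the filter of 100 reads removed no member origin. Others were judged against wide intervals, such as 0.169 to 2.396 for the WT density ratio, so the count of 93 is a weak measure of stability. Within those intervals some sizes moved, such as the WT ratio to the reference density from 0.820 to 0.560 with the flanks as reference, and the pooled log2 fold in ORC2Δ cells from 0.08 to 0.12 with TMM scaling. The exception was the count of origins down in ORC1Δ cells, which was 0 by the 1.5-fold rule and 1 by presence or absence on the list. No paired analysis was possible because the tables merge the replicates of a line and the lists hold only peaks common to both. For the same reason, leaving out each replicate in turn could not be run. With 79 to 186 reads per origin and line, the intervals of the log2 folds span 0.63 to 0.87 from end to end, so smaller differences between lines are poorly resolved at this depth. The tables count reads in origins only, so weak initiation inside the gap cannot be told apart from its absence.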
